A study of Mus musculus with 3 samples.

Results

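The genes described here build and use the chromosome axis of meiotic prophase. They are 10 protein-coding genes, chosen by name and looked up by symbol among the 21774 protein-coding RefSeq genes of the mouse nuclear chromosomes: Sycp1, Syce1, Tex12, Sycp2, Sycp3, Hormad1, Rec8, Smc1b, Stag3 and Dmc1. Their CpG methylation was read from whole-genome bisulfite libraries of spermatogonia, the mitotic germ cells that precede meiosis, taken from C57BL6/J testes at postnatal day 7 and purified by FACS with an antibody to EpCAM. There were 3 genotypes with 1 library each, labelled WT, Pld6 KO and Dnmt3L KO. Pld6 encodes a mitochondrial outer membrane protein needed to make piRNAs, the small RNAs that direct methylation to transposons in the fetal male germline. Dnmt3l encodes a DNMT3-like cofactor without catalytic activity that the de novo DNA methyltransferases need in germ cells. In the study's methods both knockout lines were backcrossed to C57BL/6J, and the wild-type replicates included heterozygous Pld6 and Dnmt3l mice. Whether the 1 file per genotype pools replicates is not given.

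When homologous chromosomes pair, meiotic cohesins made with REC8, SMC1B and STAG3 hold the sister chromatids to an axis of SYCP2, SYCP3 and HORMAD1. SYCP1 filaments, fixed in the middle by central element proteins such as SYCE1 and TEX12, then zip the homologous axes together as the synaptonemal complex, while the recombinase DMC1 carries out strand exchange. Genes of this class are known for CpG-rich promoters that are methylated and silent in somatic tissues and are used by germ cells.

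By the RefSeq transcript used for each gene, in the GRCm38 (mm10) genome, Sycp1 lies at chr3:102818499-102936100 on the minus strand with 33 exons, Syce1 at chr7:140777229-140787854 on the minus strand with 13 and Tex12 at chr9:50557148-50561268 on the minus strand with 5. Sycp2 lies at chr2:178345295-178407658 on the minus strand with 44 exons, Sycp3 at chr10:88459587-88473236 on the plus strand with 9 and Hormad1 at chr3:95559677-95587860 on the plus strand with 15. Rec8 lies at chr14:55618166-55625395 on the plus strand with 20 exons, Smc1b at chr15:85064689-85131957 on the minus strand with 25, Stag3 at chr5:138280509-138312393 on the plus strand with 34 and Dmc1 at chr15:79561497-79605109 on the minus strand with 14.

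For each gene 3 regions were read. The promoter core was 500 bp to each side of the transcription start, the shores ran from 0.5 to 3 kb on each side, and the gene body ran from 3 kb past the start to the end of the transcript. The methylation level is the number of methylated cytosine calls divided by all calls in the region, from 0 to 1, given with a 95% Wilson interval. The cores of the 10 genes held 535 CpG sites, and 8 of the 10 were CpG-dense, with an observed to expected CpG ratio of at least 0.6. Syce1 (0.520) and Rec8 (0.547) fell just below it. With 1 library per genotype there is no replicate spread and no test of genotype. The intervals cover counting error only, and calls that come from the same read are not independent.

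Promoter stretches are printed for 4 of the genes because letters in them were matched to motifs that contain CpG sites, so that the calls at those sites can be read one by one. They are the 250 bases before the start, from RefSeq (GRCm38.p6, the mm10 genome), written 5′ to 3′ on the strand of the gene. Capitals mark matches to TCCCGC, whose reverse complement is GCGGGA, a sequence bound by E2F6-type factors, to the palindromic E-box CACGTG, and to CNCCTCAG, a sequence bound by the meiotic initiators STRA8 and MEIOSIN. The Sycp3 stretch is chr10:88459337-88459586 on the plus strand, the Hormad1 stretch chr3:95559427-95559676 on the plus strand, the Tex12 stretch chr9:50561269-50561518 on the minus strand and the Rec8 stretch chr14:55617916-55618165 on the plus strand.
Sycp3: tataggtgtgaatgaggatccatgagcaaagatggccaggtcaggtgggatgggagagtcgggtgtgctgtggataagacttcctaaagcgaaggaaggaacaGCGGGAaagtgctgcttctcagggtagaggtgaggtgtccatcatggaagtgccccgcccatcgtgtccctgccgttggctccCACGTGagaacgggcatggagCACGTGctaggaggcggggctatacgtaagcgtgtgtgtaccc
Hormad1: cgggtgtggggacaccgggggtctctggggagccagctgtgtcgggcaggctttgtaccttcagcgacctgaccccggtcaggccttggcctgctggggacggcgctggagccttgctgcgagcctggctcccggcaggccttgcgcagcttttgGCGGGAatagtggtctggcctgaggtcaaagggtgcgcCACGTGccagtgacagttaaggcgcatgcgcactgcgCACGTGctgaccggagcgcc
Tex12: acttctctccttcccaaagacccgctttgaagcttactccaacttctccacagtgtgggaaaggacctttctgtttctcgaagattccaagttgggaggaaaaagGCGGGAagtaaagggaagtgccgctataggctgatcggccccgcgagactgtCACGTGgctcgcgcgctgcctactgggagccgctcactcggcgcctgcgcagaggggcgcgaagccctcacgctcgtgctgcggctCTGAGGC
Rec8: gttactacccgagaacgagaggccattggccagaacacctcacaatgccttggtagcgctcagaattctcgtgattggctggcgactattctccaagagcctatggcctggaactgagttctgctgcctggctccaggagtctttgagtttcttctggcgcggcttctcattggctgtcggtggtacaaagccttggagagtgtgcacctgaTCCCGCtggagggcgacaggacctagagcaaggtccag
Sycp3 is shown as the core with the highest level in WT, Hormad1 and Tex12 as axis and central element genes with both CpG-containing motifs, and Rec8 as the core with the lowest level in WT. The last match in Tex12 runs 1 base past the printed end.

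In the window from 250 bases before to 50 bases after the start, both strands read, TCCCGC stood in 8 of the 10 promoters, against 25.8% of 21263 protein-coding promoters of the same length. CACGTG stood in 5 of the 10 (Sycp1, Sycp3, Tex12, Hormad1 and Stag3), against 7.84%, and CNCCTCAG in 2 of the 10 (Sycp1 and Tex12), against 8.52%. Neither TCCCGC nor CACGTG was found in Sycp2 or Syce1. The CpG sites inside TCCCGC matches gave 2 methylated of 19 calls in WT and 3 of 35 in Pld6 KO, against 0 of 5 in Dnmt3L KO. Those inside CACGTG gave 4 of 25, 1 of 26 and 0 of 9, and all 4 methylated WT calls came from the E-boxes of Sycp3. A match is a stretch of letters and not a bound site. Both TCCCGC and CACGTG hold a CpG and 8 of the 10 cores were CpG-dense, and the shares among CpG-dense promoters alone were not counted.

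The libraries differed in depth and in overall level. WT held 43757722 calls, Pld6 KO 64076569 and Dnmt3L KO 19289688, a mean depth per genomic CpG of 2.0, 2.92 and 0.879. Over all sites the level was 0.703 in WT and 0.722 in Pld6 KO, against 0.301 in Dnmt3L KO. The labels were checked at the targeted genes: the Pld6 KO library had no call over a run of 66 CpG sites at Pld6 where WT had 163 calls, and the Dnmt3L KO library none over 53 sites at Dnmt3l where WT had 88. Imprinted regions stood in for cell type markers. The region 2 to 4 kb upstream of H19, methylated in male germ cells, was at 0.859 in WT and 0.884 in Pld6 KO, against 0.148 in Dnmt3L KO. The maternally methylated cores of Kcnq1ot1, Peg3 and Mest, which male germ cells leave unmethylated, lay between 0 and 0.0780 in the 3 libraries. The Snrpn core was at 0.440 in WT on 25 calls, 0 in Pld6 KO, against 0.0714 in Dnmt3L KO.

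The promoter cores of the 10 genes were low in methylation in every genotype, and in Dnmt3L KO they were nearly free of it. Pooled over the 10 cores, the level was 0.0570 (0.0459 to 0.0706, 78 of 1368 calls) in WT and 0.0814 (0.0696 to 0.0950, 146 of 1793) in Pld6 KO, against 0.00322 (0.000884 to 0.0117, 2 of 621) in Dnmt3L KO. The median of the 10 genes was 0.0414, 0.0878 and 0, while that of all CpG-dense cores was 0.00388, 0.00535 and 0. Over all genes the median was 0.00671, 0.00855 and 0 in the same order, and the pooled level 0.0502, 0.0641 and 0.0206. By median, the cores of these meiotic genes thus stood above the usual CpG-dense promoter in WT and in Pld6 KO, though Syce1 and Rec8 are not CpG-dense. The Dmc1 core in Pld6 KO, at 0.00549, lay near the CpG-dense median. In Dnmt3L KO, 8 of the 10 had no methylated call, close to the 77.2% of 10464 CpG-dense cores that had none.

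**Figure D1:**
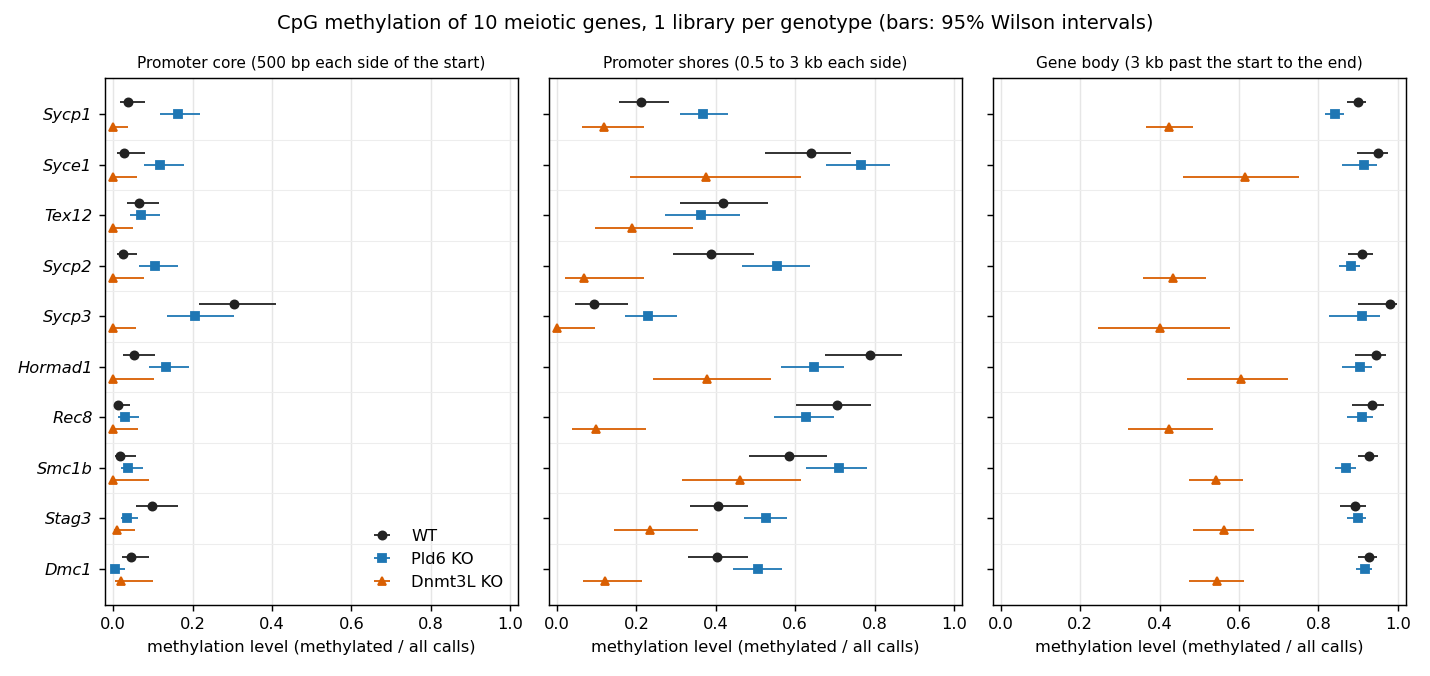
Methylation level (x axis, methylated calls divided by all calls) of the promoter core, shores and gene body of the 10 genes (y axis) in the WT, Pld6 KO and Dnmt3L KO libraries, with 95% Wilson intervals as bars. Cores lie below 0.2 except at Sycp3, shores spread from 0 to 0.788, and bodies lie above 0.8 in WT and Pld6 KO and between 0.40 and 0.615 in Dnmt3L KO. The Tex12 body is left out because it holds 2 CpG sites.

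Among the genes of the synaptonemal complex, Sycp1, which encodes the transverse filament, had a core level of 0.0380 (6 of 158 calls) in WT and 0.163 (33 of 203) in Pld6 KO, against 0 of 99 calls in Dnmt3L KO. Syce1, a central element gene, had 0.0280 (3 of 107), 0.119 (19 of 159) and 0 of 59. Tex12, another central element gene, had 0.0649 (10 of 154), 0.0710 (13 of 183) and 0 of 72. Sycp1 and Syce1 were thus higher in Pld6 KO than in WT, by 0.125 (95% Newcombe interval 0.0632 to 0.185) and 0.0915 (0.0255 to 0.154), and Tex12 was at nearly the same level in both. In WT, 2.02% of 10551 CpG-dense cores were at or above the level of Sycp1 and 0.844% at or above that of Tex12.

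Of the axis genes, Sycp2 had a core level of 0.0238 (4 of 168 calls) in WT and 0.105 (16 of 153) in Pld6 KO, against 0 of 46 in Dnmt3L KO. Hormad1, whose protein marks unpaired axes, had 0.0526 (7 of 133), 0.133 (24 of 180) and 0 of 33. Both lay higher in Pld6 KO than in WT, Sycp2 by 0.0808 (0.0277 to 0.141) and Hormad1 by 0.0807 (0.0138 to 0.144). When the level of a core was taken as the mean of its site levels in place of pooled calls, WT minus Pld6 KO at Hormad1 was -0.159. Sycp3, which encodes the major axis component, stood apart from the other 9 genes with a core level of 0.305 (0.216 to 0.411, 25 of 82 calls) in WT and 0.207 (0.135 to 0.304, 18 of 87) in Pld6 KO. Its Dnmt3L KO core had 0 of 64 calls methylated, with a Wilson interval that reached 0.0566. Only 10 of 10551 CpG-dense cores, Sycp3 among them, were at or above its WT level.

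Of the cohesin genes, Rec8 and Smc1b had the lowest WT cores of the 10. Rec8, the meiotic kleisin, had 0.0120 (2 of 166 calls) in WT and 0.0286 (5 of 175) in Pld6 KO, against 0 of 57 in Dnmt3L KO. Smc1b had 0.0165 (2 of 121), 0.0378 (7 of 185) and 0 of 39. Stag3 had 0.0976 (12 of 123), 0.0350 (10 of 286) and 0.0101 (1 of 99). Pld6 KO minus WT was 0.0165 (-0.0183 to 0.0541) at Rec8 and 0.0213 (-0.0247 to 0.0613) at Smc1b, with intervals that included 0 (WT minus Pld6 KO at Smc1b was -0.0631 by the mean of site levels), while Stag3 was lower in Pld6 KO by 0.0626 (0.0129 to 0.130). The RefSeq gene record of Stag3 starts 7995 bp upstream of the curated start used here, and with that start WT minus Dnmt3L KO in the core was 0.536 and WT minus Pld6 KO was -0.121, so that the direction in Pld6 KO turned. The start of Smc1b lies 142 bp from that of Ribc2 on the opposite strand and the start of Stag3 lies 572 bp from that of Gpc2, also opposite, so that these promoter regions belong to neighbouring genes as well. Dmc1 had 0.0449 (7 of 156) in WT and 0.00549 (1 of 182) in Pld6 KO, against 0.0189 (1 of 53) in Dnmt3L KO. It was lower in Pld6 KO by 0.0394 (0.00545 to 0.0844) with pooled calls and by 0.0815 with the mean of site levels. Both values compare partly different sites: 3 of the 7 methylated WT calls lay from -402 to -344 bp, where Pld6 KO had no call. In Pld6 KO, 49.0% of CpG-dense cores were at or above Dmc1.

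A gene was counted as lower in a knockout where WT minus knockout was at least 0.3, a size the study calls severe, with at least 10 calls in both libraries. In the core, 1 of the 10 genes (Sycp3) was lower in Dnmt3L KO by this rule, against 11.2% of 16629 protein-coding genes and 0.0382% (4 genes) of 10464 with CpG-dense cores. The Sycp3 difference of 0.305 (0.199 to 0.411) lay just past the bound, and with a core of 1000 bp to each side the count was 0, against 17.6% of all genes. The other 9 genes could not reach it, since their WT levels were below 0.1. In Pld6 KO 0 of the 10 cores were lower by 0.3, against 0.344% of 18606 genes, and 0 were higher by 0.3, against 0.666%. Without regard to size, 7 of the 10 cores were higher in Pld6 KO than in WT, against 50.2% of all genes. The other 3 (Sycp3, Stag3 and Dmc1) were lower, against 37.7% of all genes, and the remaining genes were equal in both libraries.

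CpG sites of the cores with methylated calls were grouped into stretches where neighbouring such sites lay at most 79 bp apart. Some stretches were a single site. Others were long and sparse, such as that from -250 to 22 bp at Hormad1 in Pld6 KO, with 12 of 104 calls methylated. A trimmed read spans at most 79 nt and covers a site once, so the positions set a least number of reads. Behind the 78 methylated WT calls lay at least 31 reads, behind the 146 in Pld6 KO at least 38 and behind the 2 in Dnmt3L KO at least 2. These are lower bounds, since a stretch longer than a read needs more reads than were counted for it. At Sycp1 the 33 methylated calls of Pld6 KO fell in stretches from -72 to 16 bp and from 201 to 325 bp of the start, with at most 2 methylated calls at a site. WT had 0 of 27 and 1 of 45 calls methylated in these stretches. At Stag3, 10 of the 12 methylated WT calls lay at 6 sites from 380 to 420 bp past the start, where 3 calls covered each site and Pld6 KO had 0 of 30 calls methylated. The Wilson and Newcombe intervals of the cores are therefore too narrow, and a few reads could carry the differences between WT and Pld6 KO at single genes.

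At Sycp3 the methylated sites in WT were the most numerous of the 10 cores, with a methylated call at 21 of the 33 sites with calls. From -191 to -13 bp, a stretch inside the printed sequence, 15 of 32 WT calls were methylated, with 5 of 16 in Pld6 KO, against 0 of 27 in Dnmt3L KO. The E-boxes at -64 and -43 bp each gave 2 methylated of 4 WT calls at their CpG site. Pld6 KO gave 0 of 1 and 1 of 1 there, and Dnmt3L KO 0 of 3 and 0 of 4. Downstream, from 85 to 200 bp, 8 of 18 WT calls were methylated, with 4 of 24 and 0 of 9 in the knockouts. At least 5 WT reads and 4 Pld6 KO reads with methylated calls lie behind the Sycp3 core.

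**Figure D2:**
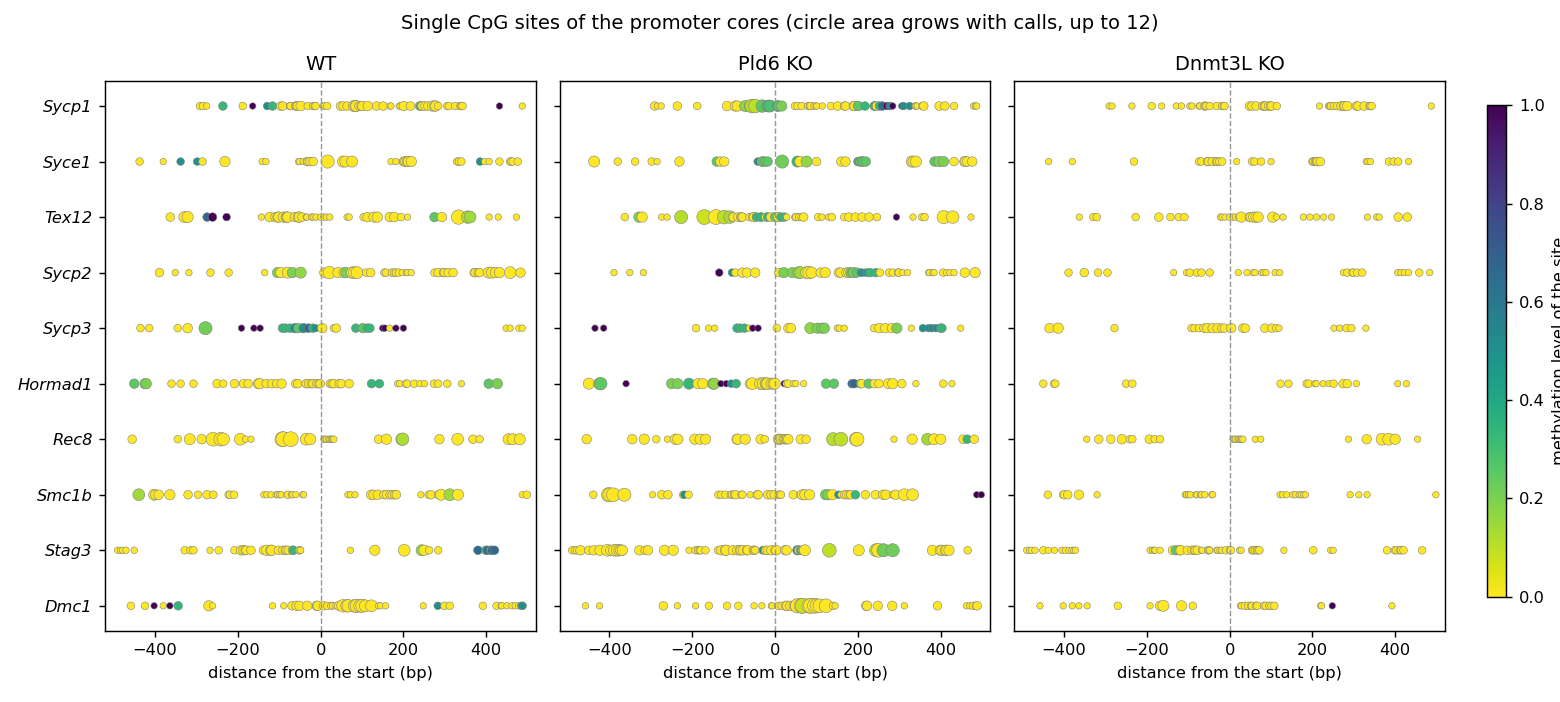
Single CpG sites of the 10 promoter cores by distance from the transcription start (x axis, bp), 1 panel per library and 1 row per gene. Colour gives the methylation level of the site from 0 (yellow) to 1 (dark) and circle area the number of calls. Sites with methylated calls lie most densely at Sycp3 in WT, and Dnmt3L KO has 2 such sites, in Stag3 and Dmc1.

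The upstream sequences printed above were also read on their own. Over the 250 bases before the start, Sycp3 had 15 of 32 calls methylated in WT and 5 of 16 in Pld6 KO, against 0 of 27 in Dnmt3L KO. Hormad1 had 0 of 64 in WT and 11 of 103 in Pld6 KO, against 0 of 4 in Dnmt3L KO. Tex12 had 2 of 63, 8 of 97 and 0 of 14, and Rec8 had 0 of 76, 0 of 46 and 0 of 11. Rec8 was thus free of methylated calls in all 3 libraries in this stretch. The CpG site in the Rec8 TCCCGC match was covered by 7 WT and 4 Pld6 KO calls, none methylated, and by no call in Dnmt3L KO. The Hormad1 E-boxes had 0 of 3 WT and 0 of 7 Pld6 KO calls methylated at each CpG site.

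The shores were intermediate in WT and differed from gene to gene. Their levels ran from 0.0921 at Sycp3 to 0.788 at Hormad1 in WT, from 0.229 at Sycp3 to 0.767 at Syce1 in Pld6 KO, and from 0 at Sycp3 to 0.462 at Smc1b in Dnmt3L KO. The medians were 0.411, 0.539 and 0.155, against 0.492, 0.543 and 0.176 over all genes. All 10 shores were lower in Dnmt3L KO than in WT, and over all genes 1.79% were higher. By the 0.3 rule 3 of the 10 (Sycp2, Hormad1 and Rec8) were lower in Dnmt3L KO, against 46.5% of 20056 genes. With shores taken from 1 to 5 kb, 7 of the 10 were, against 70.4%. By the mean of site levels 3 of the 10 were, against 48.5%, but Sycp2 (0.277) was then outside the rule and Syce1 (0.316) inside it.

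Rec8 had the largest shore difference of the 10 genes. Its shores were at 0.705 (62 of 88 calls) in WT and 0.626 (97 of 155) in Pld6 KO, against 0.0976 (4 of 41) in Dnmt3L KO, a difference between WT and Dnmt3L KO of 0.607 (0.443 to 0.711). Read by side, it was smaller, at 0.510 (0.327 to 0.640) downstream and 0.573 (0.0905 to 0.852) upstream. The more methylated upstream shore held 3 of the 41 Dnmt3L KO calls, against 32 of 88 in WT. Hormad1 went from 0.788 (52 of 66) in WT to 0.378 (14 of 37) in Dnmt3L KO, a difference of 0.410 (0.213 to 0.569). Sycp2 went from 0.388 (33 of 85) to 0.0690 (2 of 29), a difference of 0.319 (0.140 to 0.437). In Dnmt3L KO the shores of Rec8 and Sycp2 thus stood at 0.138 and 0.178 of their WT level, and those of Hormad1 at 0.480. Dmc1, at 0.404 (65 of 161) in WT and 0.120 (9 of 75) in Dnmt3L KO, lay just outside the rule with a difference of 0.284 (0.166 to 0.379).

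The remaining shores differed less. Syce1 was at 0.639 (46 of 72 calls) in WT and 0.375 (6 of 16) in Dnmt3L KO, and Tex12 at 0.417 (30 of 72) and 0.189 (7 of 37). Stag3 was at 0.406 (71 of 175) and 0.233 (14 of 60). Smc1b was at 0.585 (55 of 94) and 0.462 (18 of 39), a difference of 0.124 (-0.0596 to 0.297) that was 0.272 by the mean of site levels. Read by side, it was larger, at 0.230 (0.0267 to 0.424) upstream and 0.189 (-0.156 to 0.368) downstream. The more methylated upstream shore held 30 of the 39 Dnmt3L KO calls, against 54 of 94 in WT. With both sides pooled, Sycp1 and Sycp3 had low shores already in WT, at 0.212 (33 of 156) and 0.0921 (7 of 76). In Dnmt3L KO they were at 0.119 (8 of 67) and 0 of 36 calls. At Sycp1 the downstream shore alone was low in WT, at 0.0741 (8 of 108), with 0.0784 (4 of 51) in Dnmt3L KO. Its upstream shore was at 0.521 (25 of 48) in WT and 0.250 (4 of 16) in Dnmt3L KO. Over both sides pooled, the intervals of the difference included 0 at Syce1 (-0.00113 to 0.479), Smc1b, Sycp1 (-0.0219 to 0.183) and Sycp3 (-0.0151 to 0.178). The Sycp3 locus was thus arranged the other way round from the rest in WT, with a core level above that of its shores. In Pld6 KO its core (0.207) lay below its shores (0.229). The upstream shore of Sycp3, 34 CpG sites, had 3 of 60 calls methylated in WT and 10 of 92 in Pld6 KO, against 0 of 26 in Dnmt3L KO. Its downstream shore was at 0.250 (0.102 to 0.495) in WT on 16 calls, an interval that overlaps that of the core.

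In Pld6 KO, 7 of the 10 shores were higher than in WT, against 65.5% of all genes. By the mean of site levels 5 of the 10 were, against 56.3%, since WT minus Pld6 KO turned at Syce1 (0.120) and Stag3 (0.00530). The shores that were not higher were those of Tex12 (0.362, 34 of 94 calls), Hormad1 (0.647, 88 of 136) and Rec8. By the 0.3 rule 0 of the 10 were lower, against 0.494% of 20851 genes, and 0 were higher by 0.3, against 0.427%. Sycp1, at 0.369 (87 of 236), lay above its WT level by 0.157 (0.0651 to 0.242), and Sycp2, at 0.553 (68 of 123), by 0.165 (0.0265 to 0.293), with WT minus Pld6 KO at -0.0946 by the mean of site levels. Stag3, at 0.526 (175 of 333), was higher by 0.120 (0.0284 to 0.208) with pooled calls alone, and Sycp3 by 0.137 (0.0330 to 0.223) at 0.229 (36 of 157). Read by side, the upstream shore of Sycp2 was at 0.464 (26 of 56) in WT and 0.821 (55 of 67) in Pld6 KO, against 0.050 (1 of 20) in Dnmt3L KO. The downstream shore of Stag3 was at 0.30 (15 of 50), 0.605 (49 of 81) and 0.160 (4 of 25). These were the 1 of 10 upstream and the 1 of 10 downstream shores higher in Pld6 KO by 0.3, against 1.42% and 1.07% of all genes. The upstream shore of Tex12, at 0.857 of 14 calls in WT and 0.30 of 20 calls in Pld6 KO, was the 1 of 10 upstream shores lower by 0.3, against 1.04% of all genes, and 0 of 10 downstream shores were, against 0.698%.

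**Figure D3:**
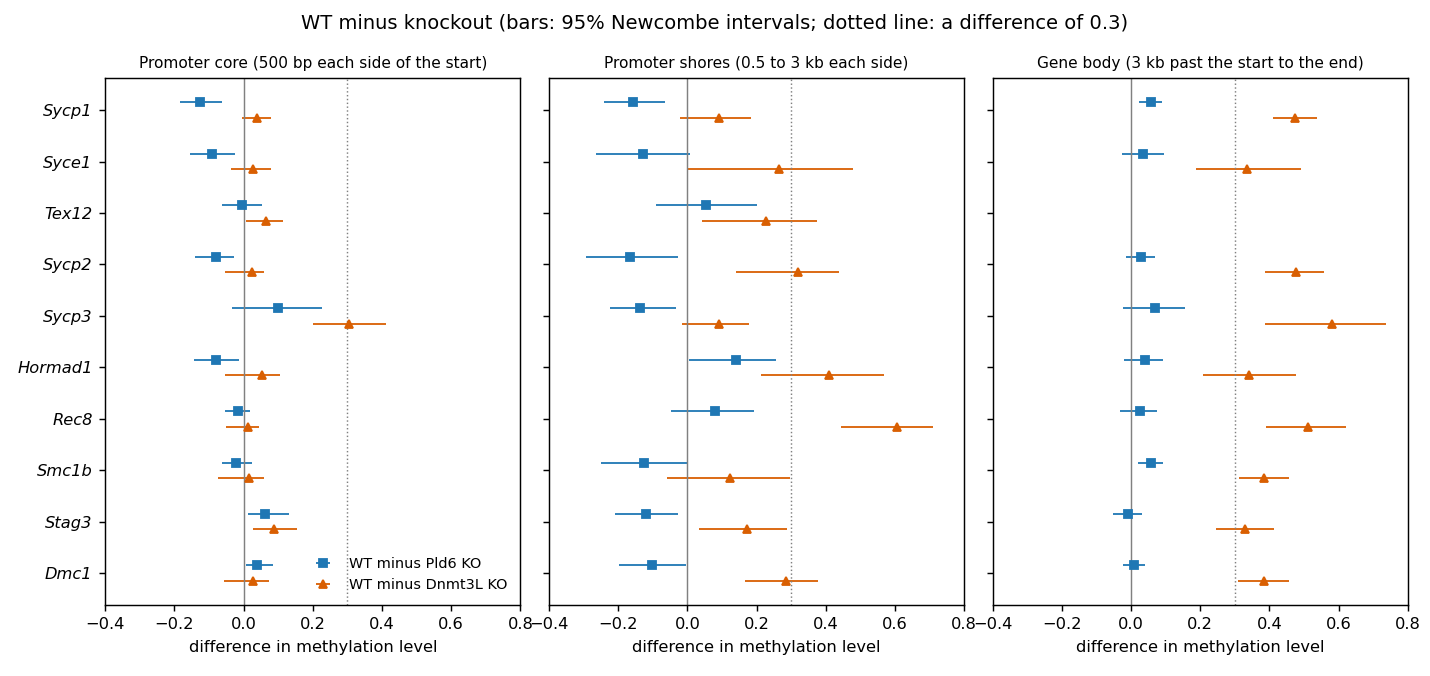
WT minus Pld6 KO and WT minus Dnmt3L KO methylation level (x axis) in the core, shores and body of each gene (y axis), with 95% Newcombe intervals as bars and a dotted line at 0.3. In the core 1 Dnmt3L KO difference, that of Sycp3, reaches the line, in the shores those of Sycp2, Hormad1 and Rec8, and in the body all 9 with enough calls, while no Pld6 KO difference reaches it.

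In bins of 500 bp the pooled calls of the 10 genes showed how far the low zone reached. In WT the level was 0.148 from -1000 to -500 bp, 0.0689 and 0.0475 on either side of the start, 0.125 from 500 to 1000 bp and 0.539 from 1000 to 1500 bp, and reached 0.945 from 1500 to 2000 bp. In Dnmt3L KO the same bins were at 0.0615, 0.00362, 0.00290, 0.0143, 0.10 and 0.471. Over all genes the WT level from 1500 to 2000 bp was 0.524 and the Dnmt3L KO level 0.221. The bin from 1500 to 2000 bp rests on few calls, 52 methylated of 55 from 8 of the 10 genes in WT and 8 of 17 from 5 genes in Dnmt3L KO (0.262 to 0.690). In Pld6 KO the pooled level from -1500 to -1000 bp was 0.595, against 0.395 in WT, the widest gap between these libraries among the 12 bins. Much of it came from Dmc1, with 2 of 39 calls methylated in WT and 22 of 46 in Pld6 KO. Stag3 (3 of 16 and 1 of 15) and Rec8 (1 of 1 and 5 of 7) went the other way. Over all genes this bin was at 0.405 in WT and 0.462 in Pld6 KO.

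**Figure D4:**
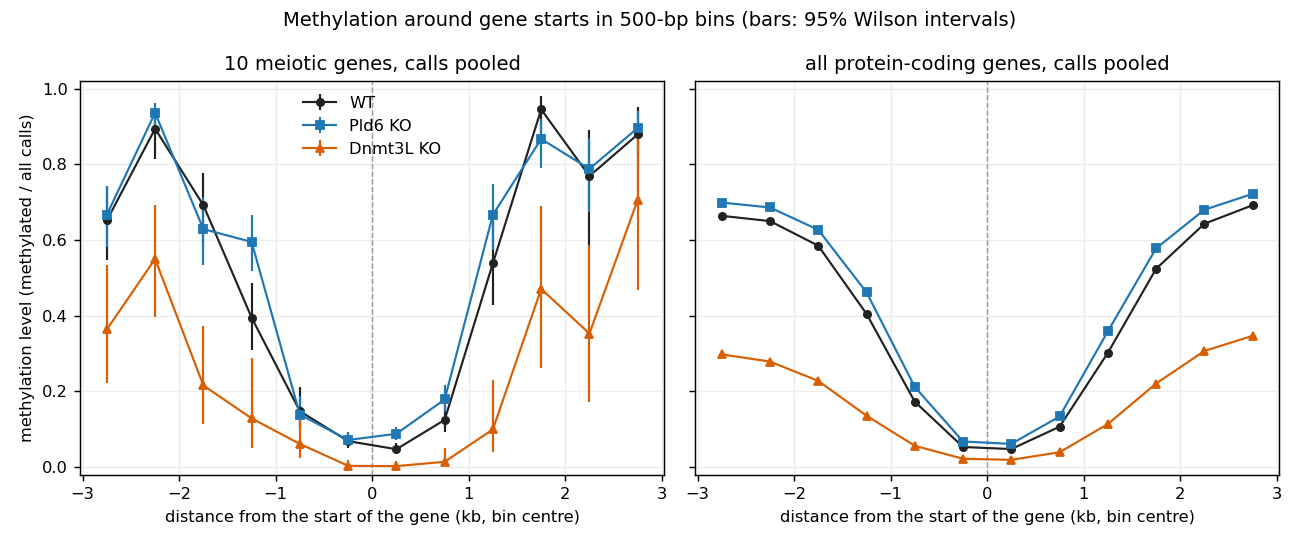
Pooled methylation level (y axis) in 500-bp bins from 3 kb before to 3 kb after the transcription start (x axis, kb) for the 10 meiotic genes and for all protein-coding genes, 1 line per library with 95% Wilson intervals. WT and Pld6 KO dip to below 0.1 around the start and Dnmt3L KO to 0.00290, and the meiotic genes climb to 0.945 in WT from 1500 to 2000 bp, against 0.524 over all genes.

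The gene bodies were highly methylated in WT and Pld6 KO and intermediate in Dnmt3L KO. The 9 bodies with enough calls had a median of 0.928 in WT and 0.904 in Pld6 KO, against 0.543 in Dnmt3L KO. Over all genes the medians were 0.881, 0.873 and 0.438. All 9 were lower in Dnmt3L KO by at least 0.3, a share to be read against 80.9% of 16701 genes. With the body taken from the start of the gene, 5 of 10 were, against 55.4%. By the mean of site levels 7 of the 9 were, against 79.3%, with Syce1 (0.213) and Stag3 (0.269) outside the rule. As a percentage of the WT level the median was 58.5% for these genes and 51.5% for all. Tex12, 4121 bp long, has 2 CpG sites in its body and no Dnmt3L KO call there.

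Sycp3 had the largest body difference, from 0.981 (51 of 52 calls) in WT to 0.40 (12 of 30) in Dnmt3L KO, 0.581 (0.386 to 0.736). Rec8 went from 0.935 (145 of 155) to 0.423 (33 of 78), Sycp2 from 0.910 (305 of 335) to 0.434 (63 of 145), and Sycp1 from 0.899 (571 of 635) to 0.424 (109 of 257). In Dnmt3L KO these 4 genes were at 40.8% to 47.7% of their WT level. Dmc1 went from 0.927 (434 of 468) to 0.544 (105 of 193), Smc1b from 0.928 (388 of 418) to 0.543 (114 of 210) and Hormad1 from 0.944 (134 of 142) to 0.604 (32 of 53). Syce1 went from 0.949 (130 of 137) to 0.615 (24 of 39) and Stag3 from 0.891 (303 of 340) to 0.561 (87 of 155). These 5 were at 58.5% to 64.9%, and their differences, from 0.330 to 0.385, lay nearest to the bound.

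In Pld6 KO, 0 of the 9 bodies were lower than WT by 0.3, against 0.245% of 17166 genes. Without regard to size, 8 of the 9 were lower in Pld6 KO, against 58.0% of all genes, and Stag3 was at 0.899 (534 of 594 calls) against 0.891 in WT. By the mean of site levels 7 of the 9 were lower, against 66.5%, since WT minus Pld6 KO turned at Sycp2 (-0.0297). Unlike its core and shores, which were higher in Pld6 KO, the Sycp1 body was at 0.842 (740 of 879), lower than WT by 0.0573 (0.0230 to 0.0905). The Smc1b body was at 0.870 (561 of 645), lower by 0.0585 (0.0211 to 0.0936). The exact test of Fisher on calls, which compares these libraries and not the genotypes, gave adjusted p = 0.0145 for Sycp1 and 0.0222 for Smc1b after Benjamini-Hochberg adjustment over all genes. By that rule 2 of the 9 bodies were lower in Pld6 KO, against 7.19% of 17166 genes.

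The difference at Sycp1 and Smc1b was larger inside soft-masked repeats, the interspersed and simple repeats written in lower case in the genome. Inside them Sycp1 was at 0.908 (0.877 to 0.932, 414 calls) in WT and 0.807 (0.772 to 0.838, 549 calls) in Pld6 KO, against 0.373 in Dnmt3L KO. Outside them it was at 0.882 (0.833 to 0.918), 0.90 (0.863 to 0.928) and 0.556. Smc1b was at 0.930 (0.872 to 0.963), 0.807 (0.747 to 0.855) and 0.525 inside repeats and at 0.928, 0.898 and 0.550 outside. Of the 7 genes with enough calls in repeats, 6 had a lower level there in Pld6 KO than in WT. They included Sycp2 (0.946 in WT and 0.840 in Pld6 KO), Sycp3, Hormad1 and Stag3, and outside repeats 7 of 9 genes were lower. The share of all genes that were lower was not counted by repeats, and for whole bodies it was 58.0%. Pooled over the 10 genes, the level in repeats was 0.916 in WT and 0.850 in Pld6 KO, against 0.857 and 0.823 over all genes, and outside repeats 0.918 and 0.903, against 0.822 and 0.831. In Dnmt3L KO, 3 of 7 genes were higher inside repeats than outside, Sycp2 (0.571 and 0.420, 14 calls inside), Stag3 (0.667 and 0.547, 18 calls inside) and Dmc1. Dmc1 had 0.719 (0.599 to 0.814, 64 calls) inside repeats and 0.457 (0.374 to 0.543, 129 calls) outside. The share of all genes was not counted here either, and pooled over all genes the level was 0.413 inside repeats and 0.419 outside.

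**Figure D5:**
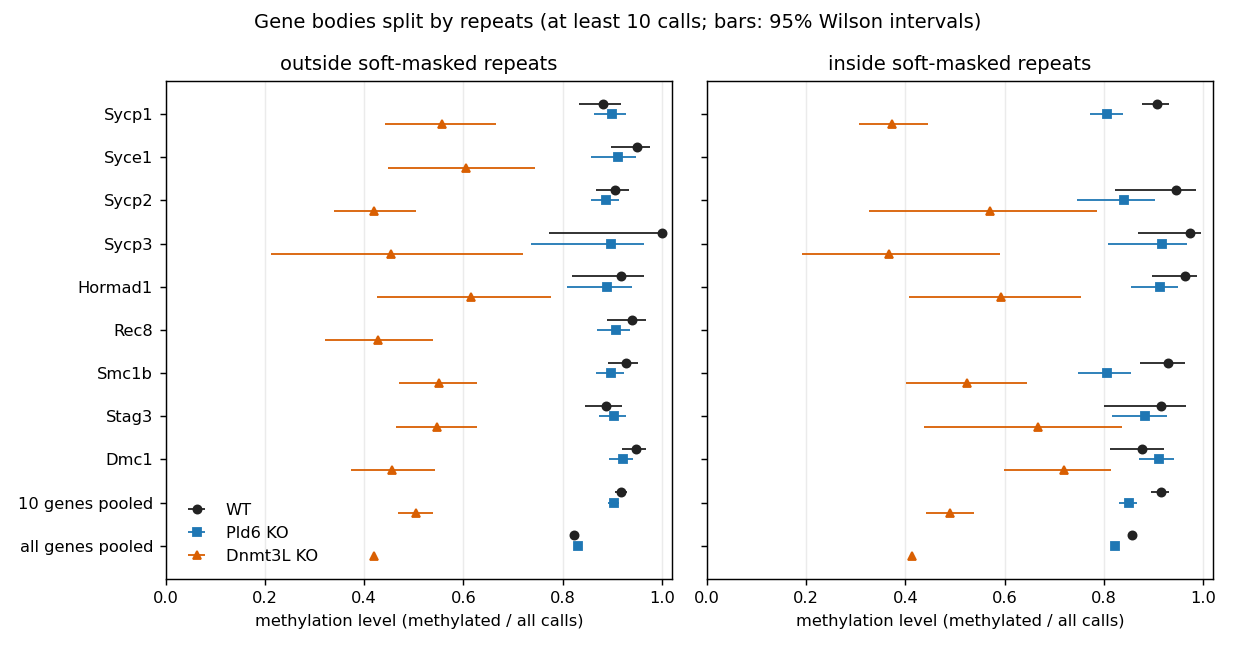
Gene body methylation level (x axis) outside and inside soft-masked repeats for 9 of the genes, the 10 genes pooled and all protein-coding genes pooled (y axis), in the 3 libraries with 95% Wilson intervals and at least 10 calls. Pld6 KO falls below WT inside repeats at 6 of the 7 genes drawn there, to 0.807 at Sycp1 and Smc1b. Pooled over all genes, the level inside repeats is 0.857 in WT and 0.823 in Pld6 KO. Dnmt3L KO lies lower everywhere, with Dmc1 repeats at 0.719.

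Other genes of meiosis were read the same way, from a list of 45 that included the double-strand break machinery, crossover factors, telomere attachment proteins and meiotic regulators, of which 44 had an entry. Their cores had medians of 0.0287 in WT and 0.0373 in Pld6 KO, against 0 in Dnmt3L KO. By the 0.3 rule 0 of 40 cores were lower in Dnmt3L KO, against 11.2% of all genes and 0.0382% of those with CpG-dense cores. In Pld6 KO 0 of 41 were, against 0.344% of all genes. Where WT and Dnmt3L KO each had 20 or more calls, the largest core differences between them were at Prr19 (0.115 of 52 calls against 0 of 22), Tex11 (0.109 of 46 against 0 of 31) and Msh4 (0.124 of 137 against 0.0156 of 64), all smaller than that of Sycp3. The genes with fewer calls included 2 larger differences, Spo11 (0.184 of 87 against 0 of 17) and Terb2 (0.169 of 83 against 0 of 15), named here after their values were seen. In the shores 23 of 44 were lower in Dnmt3L KO by 0.3, against 46.5% of all genes, and in the body 39 of 43, against 80.9%. In Pld6 KO 0 were lower in either region, against 0.494% and 0.245% of all genes. The largest shore differences were at Tex15 (0.932 in WT, 0.844 in Pld6 KO, 0.259 in Dnmt3L KO), Mlh3, a mismatch repair gene used at crossovers (0.833, 0.852, 0.164), and Kash5, which links telomeres to dynein (0.782, 0.759, 0.233).

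Imprinted cores were also read as a measure of other cells, whose removal the study checked by bisulfite PCR at Lit1, another name of Kcnq1ot1. Somatic cells are known to methylate promoters of this class and to carry a methylated maternal allele at imprinted regions. The Kcnq1ot1 core was at 0.0780 (0.0441 to 0.134) in WT and 0.0700 (0.0441 to 0.109) in Pld6 KO, against 0.0154 (0.00272 to 0.0821) in Dnmt3L KO, beside pooled meiotic cores of 0.0570, 0.0814 and 0.00322. Peg3 was at 0.0692, 0.0359 and 0, Mest at 0, 0.0372 and 0.0154, and Snrpn at 0.440, 0 and 0.0714 on 25 to 34 calls. The part of such cells in the core levels was not tested, and with 1 library per genotype it cannot be told apart from genotype.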

How the data were processed

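The deposited data are whole-genome bisulfite libraries made by post-bisulfite adaptor tagging from FACS-purified spermatogonia, 1 per genotype. Per the study's methods, the authors removed the first 6 nt, the last 15 nt and stretches with Q below 30 from single-end 100-nt reads and aligned them to mm10 with Bismark at default settings, unique regions only (version not given in the sources used here). The deposited files give counts of calls of either state at every listed CpG, and the deposited fraction was the same as methylated counts over all counts throughout, within 0.0001. Only the counts were used. PCR copies cannot be told apart from separate molecules in these counts, and reads without a unique position are not in them.

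Calls were summed per gene and region from RefSeq Select starts (GRCm38.p6) in Python 3.11.15 with numpy 2.4.6, scipy 1.17.1 and pandas 2.3.3. Regions needed 10 calls in both libraries. The count rules were tested on simulated data for the shores and bodies, with independent calls. The cores were not simulated, and neither was the dependence of calls from the same read. The 10 genes, the other lists and the motifs were chosen with earlier results of these data known. All 10 genes are named. Of the other meiotic genes, the 3 with the largest WT minus Dnmt3L KO difference in the core and in the shores, with at least 20 calls in both libraries, are named. Tests, alternatives and limits are given with the results.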

Additional observations from a re-analysis of the deposited data

How the results depend on the processing

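No paired analysis was possible because each genotype has 1 library, which also leaves no replicate to leave out. Of the counts of genes lower by 0.3, these moved by more than 1.5 times. In the core, widening it to 1000 bp each side took the Dnmt3L KO count from 1 to 0 (17.6% of all genes). In the shores the Dnmt3L KO count of 3 became 6 with a difference of at least 0.2 (64.7% of all genes), 7 with shores from 1 to 5 kb (70.4%) and 6 by Fisher's exact test with adjustment over all genes (80.2%), and the Pld6 KO count of 0 became 1 with the upstream shore alone. In the body the Dnmt3L KO count of 9 became 5 of 10 when the body began at the start of the gene and 5 of 7 in soft-masked repeats alone (76.7% of all genes), and the Pld6 KO count of 0 became 2 by Fisher's exact test. Of the single differences, those of Stag3 moved when its start was taken from the gene record, 7995 bp away (core 0.536, shores 0.482 and body 0.208 for WT minus Dnmt3L KO, core -0.121 for WT minus Pld6 KO). With the mean of site levels in place of pooled calls 5 of 59 differences moved, all between WT and Pld6 KO, and WT minus Pld6 KO changed sign in the shores of Syce1 (0.120) and Stag3 (0.00530) and in the body of Sycp2 (-0.0297). The other 2 were the cores of Hormad1 (-0.159) and Smc1b (-0.0631). The cause was not tested. Leaving out sites with more than 20 calls moved 0 of 59. The Dnmt3L KO cores rest on 33 to 99 calls each, and where no call was methylated the Wilson intervals reached 0.0374 to 0.104. Calls of the same read are not independent, so that higher levels remain possible. The Hormad1 core had no Dnmt3L KO call from -208 to 69 bp of the start.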
